A study of Mus musculus with 2 samples.

Results

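NK-like cells made up 60 of the 19339 cells called in scRNA-seq libraries of CD11c+ cells sorted from mouse spleen, which the labels call dendritic cells. They were selected on measured values: a cell was taken when its unique molecular identifiers (UMIs, which count captured mRNA molecules) of Ncr1, Klrb1c and Gzma summed to at least 3 and when it held fewer than 5 UMIs of Siglech, a gene of plasmacytoid dendritic cells (DC). WT mice were H2-Aa +/+. H2-Aa cit/cit mice were homozygous for citation (cit), a germline allele made by chemical mutagenesis on the C57BL/6J background and carried by every cell of the animal. The allele is predicted to impair splicing of H2-Aa, the gene of an MHC class II α chain. The study calls it effectively null, as its splenocytes showed neither mature H2-Aa mRNA nor MHC class II complex. The H2-Aa cit/cit mice are called mutant below. Both groups were naive, so no tumor and no treatment was given. By the labels, spleens of 3 female mice, 4 months of age, were pooled for the 1 library of each genotype (the study's methods give a younger age for its mice in general), and individual mice cannot be told apart in it. Cells were enriched on CD11c with beads and live CD45.2+ CD11c+ cells were sorted, and no step that removes other lineages is described for this sort. With 1 library per genotype no test between genotypes was possible. Every interval below is a 95% interval that covers the counting of molecules or cells alone and not the spread between mice. Intervals of summed UMIs do not cover the spread between cells either, so a few cells can move a ratio past its interval.

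NK cells are innate lymphocytes that kill target cells by releasing perforin and granzymes from cytotoxic granules, and that secrete IFN-γ and chemokines. They integrate signals from activating and inhibitory receptors, of which the mouse Ly49 family, encoded by the Klra genes on chromosome 6, reads MHC class I molecules and viral look-alikes. Mouse NK cells carry some CD11c on their surface. They do not make MHC class II themselves in the resting state, and DC do so abundantly.

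The NK-like cells numbered 34 of 7814 WT cells, or 0.435% (exact Clopper-Pearson interval, 0.302 to 0.608), and 26 of 11525 mutant cells, or 0.226% (0.147 to 0.330). The difference in share, H2-Aa cit/cit minus WT, was -0.210 percentage points (Newcombe interval, -0.396 to -0.0475). Fewer NK-like cells and fewer molecules per cell of the 3 selecting genes cannot be told apart in such a share, since a shallow cell can miss the threshold. With the rule applied to cells thinned at random to 1500 UMIs, 26 of 7080 WT and 16 of 10567 mutant cells met it, a difference of -0.216 percentage points (-0.396 to -0.0659), and 734 and 958 shallower cells were left out. The cells held a median of 4654 UMIs in WT, between 3057 and 14736, and of 3382 UMIs in the mutant, between 1116 and 20901. The libraries shared 31 cell barcodes, and 0 NK-like cells carried one of them. The mitochondrial share of UMIs reached 4.21% at most in WT and 6.88% in mutant NK-like cells.

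Just outside the limit, 0 WT and 5 mutant cells had a sum of 2, of which 1 cell held 15 UMIs of Nkg7, 1 cell held 8 and the others none. Just inside, 1 WT and 2 mutant cells had a sum of 3. The limit on Siglech removed 0 cells. On GRCm38 the selecting genes are annotated by GENCODE at chr7:4337724-4345164 on the plus strand for Ncr1, and on the minus strand at chr6:128778485-128789215 for Klrb1c and chr13:113093825-113100981 for Gzma. All 3 selecting genes were found together in 26 of 34 WT and in 11 of 26 mutant cells. Nkg7, a granule membrane protein that the rule did not use, had no UMI in 1 WT and 4 mutant cells.

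The targeted gene was checked first. Levels are given as CPM, a gene's UMIs over all UMIs of the cells in question on a common scale, on which 1 UMI in the NK-like cells is worth 4.90 CPM in WT and 6.68 CPM in the mutant. H2-Aa stood at 5430 CPM in the other WT cells and at 66.3 CPM in the other cells of the mutant library. In the NK-like cells it gave 95 UMIs in 29 of 34 WT cells and 2 UMIs in 2 of 26 mutant cells. Both libraries thus carried the H2-Aa level that their label calls for.

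NK genes that were not part of the rule set these cells apart in both libraries. Il2rb, the β chain of the IL-2 and IL-15 receptor, stood at 505 CPM in WT and 454 CPM in mutant NK-like cells and at 0.157 and 0.317 CPM in the other cells. Eomes, a T-box factor of NK cells, gave 34 UMIs in 19 WT cells and 22 UMIs in 8 mutant cells, against 0.0394 CPM and 0 UMIs in the other cells. The 20 genes with the highest level against all other cells in both libraries also held Nkg7, Klra4, Klra8, Klre1, Prf1, Itga2, Tox, Skap1, Prkcq, Txk, Gimap4, Gimap6, Samd3, Ms4a4b, Kcnq5 and Gm2682. These contrasts follow from how the cells were chosen and are given as a description.

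Markers of T cells and B cells were checked next. Cd3e, a chain that every T cell receptor complex needs, had 0 UMIs in the NK-like cells of either library. At least 2 UMIs of Cd3d, Cd3e, Cd3g and Trac together were found in 0 WT and 1 mutant cell. That cell held 10 such UMIs, 21 UMIs of Gzma and none of Ncr1 or Klrb1c. Trbc1, whose unrearranged transcript is also found in NK cells, gave 46 UMIs in 15 WT and 53 UMIs in 13 mutant cells, and 26.9% of the 100-base windows at the 3′ ends of Trbc1 also occur in another Trbc gene, most often Trbc2. The 16 T cell genes summed to 569 CPM in WT and 788 CPM in the mutant, above the 168 and 137 CPM of the other cells, with Trbc1 the most abundant and 6 and 3 genes at 0. The 9 B cell genes summed to 176 and 140 CPM, below the 417 and 248 CPM of the other cells, with Ighm the most abundant and 5 and 6 genes at 0, Cd79a and Ms4a1 among them in both. The 9 macrophage and monocyte genes gave 35 UMIs in 7 WT cells and 3 UMIs in 2 mutant cells. The 7 neutrophil genes gave 0 UMIs in WT and 1 UMI in the mutant, and the 5 erythroid genes 1 UMI in each.

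**Figure D1:**
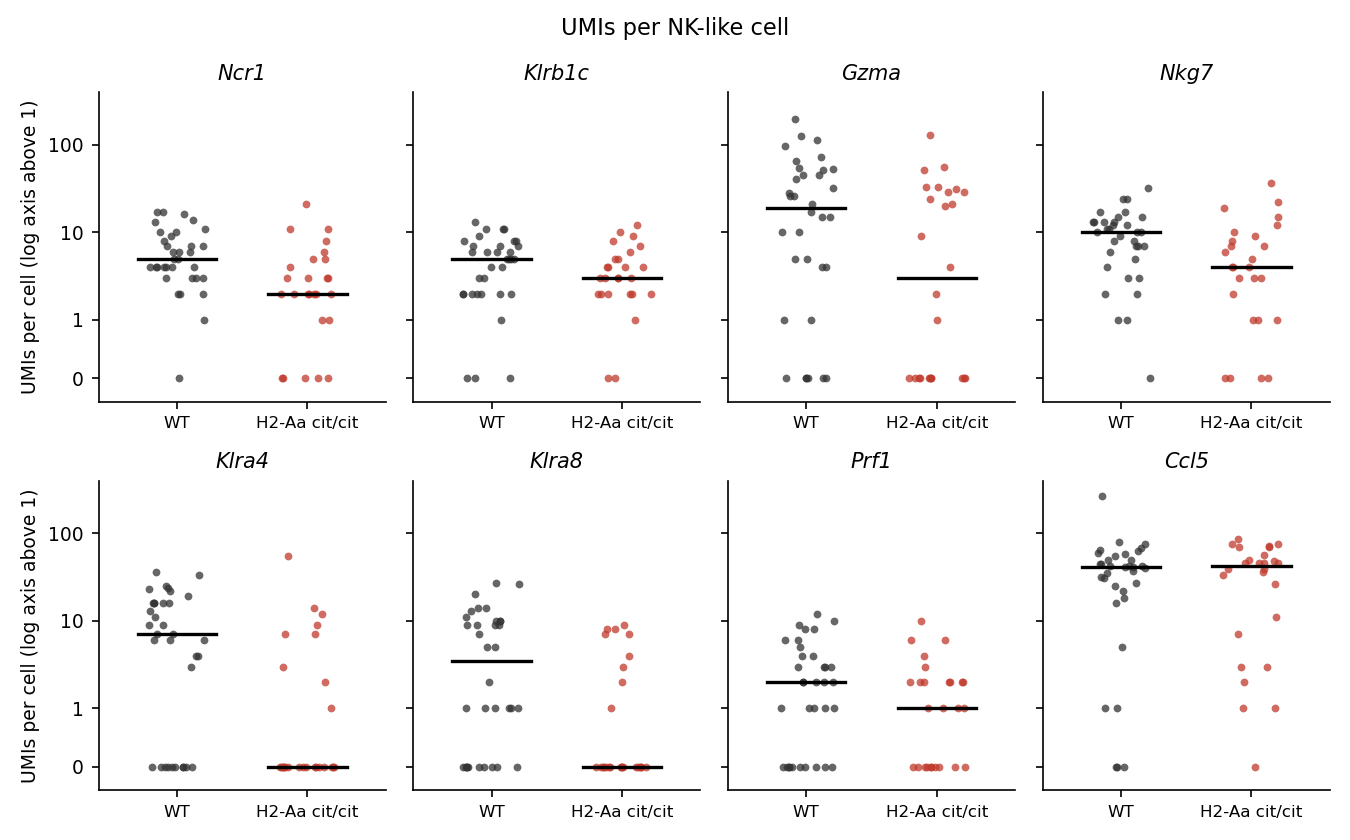
UMIs per NK-like cell of 8 genes, with 1 point per cell, WT (34 cells, gray) and H2-Aa cit/cit (26 cells, red); bars are medians and the axis is logarithmic above 1 UMI. Ncr1, Klrb1c and Gzma chose the cells. Cells without Gzma, Klra4 or Klra8 make up a larger share of the H2-Aa cit/cit points, whereas Ccl5 covers the same range in both libraries apart from 1 WT cell at 264 UMIs.

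Of the granule genes 1 of 14 was past 2-fold, a call that was lost when some cells were left out, and the other 13 lay below their WT level by less than that. Gzma, the granzyme used in the rule, had a lowest, median and highest value of 0, 19 and 198 UMIs per cell in WT and of 0, 3 and 129 UMIs per cell in the mutant. The ranges overlapped over most of their length, and 6 WT and 11 mutant cells had none. Summed over cells Gzma stood at 5803 CPM in WT and 3154 CPM in the mutant, a log2 ratio of -0.88, and of -0.43 without the 2 WT and 2 mutant cells that were cycling, with at least 10 UMIs of Mki67 and Top2a. As Gzma chose the cells, its values are a description.

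Perforin (Prf1), which opens the target membrane for granzymes, ran from 0 to 12 UMIs per cell in WT with a median of 2, and from 0 to 10 in the mutant with a median of 1. Its level was 485 against 314 CPM, with a log2 ratio of -0.63 (exact conditional binomial interval, -1.16 to -0.11). The interval included 0 without the cells rich in DC RNA, at -0.49 (-1.04 to 0.04), without the cycling cells, at -0.54 (-1.12 to 0.03), and among cells with Gzma, at -0.41 (-0.97 to 0.12). In cells thinned to 1500 UMIs, which takes out the difference in depth and leaves out 2 mutant cells under that number, Prf1 was found in 41.2% of WT and 45.8% of mutant cells. Gzmb had 52 UMIs in 12 WT and 20 UMIs in 8 mutant cells, or 255 and 134 CPM, and Nkg7 1691 and 1223 CPM.

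Of the 20 granule and killing genes 14 reached 20 UMIs over both libraries, and all 14 log2 ratios lay below 0, with a median of -0.72. Past 2-fold were 0 higher and 1 lower, Fasl, the death ligand, with 35 UMIs in 15 WT and 11 UMIs in 7 mutant cells. Fasl was under 2-fold without the cells rich in DC RNA, at -0.95 (-2.08 to 0.06), and without 4 WT cells rich in Ccl4, at -0.71 (-1.93 to 0.43). Over all 3674 genes with that many UMIs the median log2 ratio was 0.00 to 2 decimals, and 10.3% were past 2-fold, 5.12% higher and 5.14% lower in the mutant. The share of granule genes past 2-fold was thus near the background, and their median was lower. Leaving out Gzma, which the rule used, the median was -0.66 over 13 genes, with the interval wholly below 0 for 7 and including 0 for 6. Among all 3674 genes the interval lay wholly below 0 for 191. Without the cells rich in DC RNA, described below, the median was -0.49 and the interval lay wholly below 0 for 0 of the 13. Genes under 20 UMIs included Gzmm, with 1 UMI in 1 WT cell and 10 UMIs in 4 mutant cells, Gzmc, with 0 UMIs and 9 UMIs in 3 cells, and Gzmk, with 2 and 3 UMIs. A lower level was not particular to granule genes. Of 13 NK markers that the rule did not use 12 lay below 0, with 7 intervals wholly below 0 and a median of -0.47. Without the cells rich in DC RNA 2 intervals lay wholly below 0 and the median was -0.25.

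Among the effector genes with at least 20 UMIs the ratios farthest from 0 were those of 3 chemokines, of which most WT UMIs of Ccl4 and Ccl3 and part of those of Xcl1 came from 4 cells. Ccl4, an inflammatory chemokine, gave 519 UMIs in 19 WT and 47 UMIs in 11 mutant cells, with a log2 ratio of -3.02 (-3.48 to -2.59). Ccl3, a closely related chemokine, gave 171 UMIs in 11 WT and 23 UMIs in 4 mutant cells, with a log2 ratio of -2.45 (-3.14 to -1.81). Xcl1, which attracts XCR1+ cDC1, gave 205 UMIs in 13 WT and 41 UMIs in 8 mutant cells, with a log2 ratio of -1.87 (-2.40 to -1.39).

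The WT cells with most Ccl4 held 96, 119, 123 and 141 UMIs of it, together 479 of 519. The next WT cell held 12, and the highest mutant cell 17. These 4 WT cells also held 155 of the 171 Ccl3 UMIs, 109 of the 205 Xcl1 UMIs, 33 of the 40 UMIs of Egr1 and 23 of the 25 UMIs of Nr4a1, both immediate-early genes, and 2 of the 4 were cycling, with 48 and 51 UMIs of Mki67 and Top2a. They were deep, with 7896 to 14435 UMIs each.

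Without these 4 cells, left out after their values had been seen, the levels of Ccl4 and Ccl3 lay above WT in the mutant, with intervals that included 0. The cells were picked by Ccl4 itself, and 0 mutant cells reached the limit of 20 UMIs, so leaving them out lowers WT Ccl4 by construction. In the mutant 1 cell held 17 of the 47 Ccl4, 16 of the 23 Ccl3 and 22 of the 41 Xcl1 UMIs. Ccl4 then stood at 254 CPM in 30 WT and 314 CPM in 26 mutant cells, a log2 ratio of 0.31 (-0.33 to 0.95), and Ccl3 at 101 and 154 CPM, a log2 ratio of 0.60 (-0.38 to 1.62). This order was not seen among cells with Gzma. That split uses a gene of the rule, was also made after the values had been seen and is a description. Among cells with Gzma and without the 4 cells, Ccl4 gave 35 UMIs in 24 WT and 7 UMIs in 15 mutant cells, a log2 ratio of -2.07 (-3.48 to -0.88), and Ccl3 12 and 0 UMIs. With the 4 cells included, cells with Gzma gave 514 and 7 UMIs of Ccl4, a log2 ratio of -5.42 (-6.75 to -4.37), and 167 and 0 UMIs of Ccl3. Over all cells but the 4, Xcl1 stayed lower in the mutant, at 609 against 274 CPM and a log2 ratio of -1.15 (-1.72 to -0.61). Ccl5, the most abundant gene of the list, did not differ by more than its interval once they were left out, at 6634 and 6601 CPM and a log2 ratio of -0.01 (-0.13 to 0.12).

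Of 11 cytokine and chemokine genes 6 reached 20 UMIs, of which 0 were past 2-fold higher and 3 past 2-fold lower, with a median log2 ratio of -1.06. Among all genes 5.14% were past 2-fold lower. Without the 4 cells 1 of 6 was past 2-fold lower and the median was 0.13. Ifng gave 13 UMIs in 8 WT and 2 UMIs in 2 mutant cells, and Tnf 4 and 2 UMIs, which is too few to compare.

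**Figure D2:**
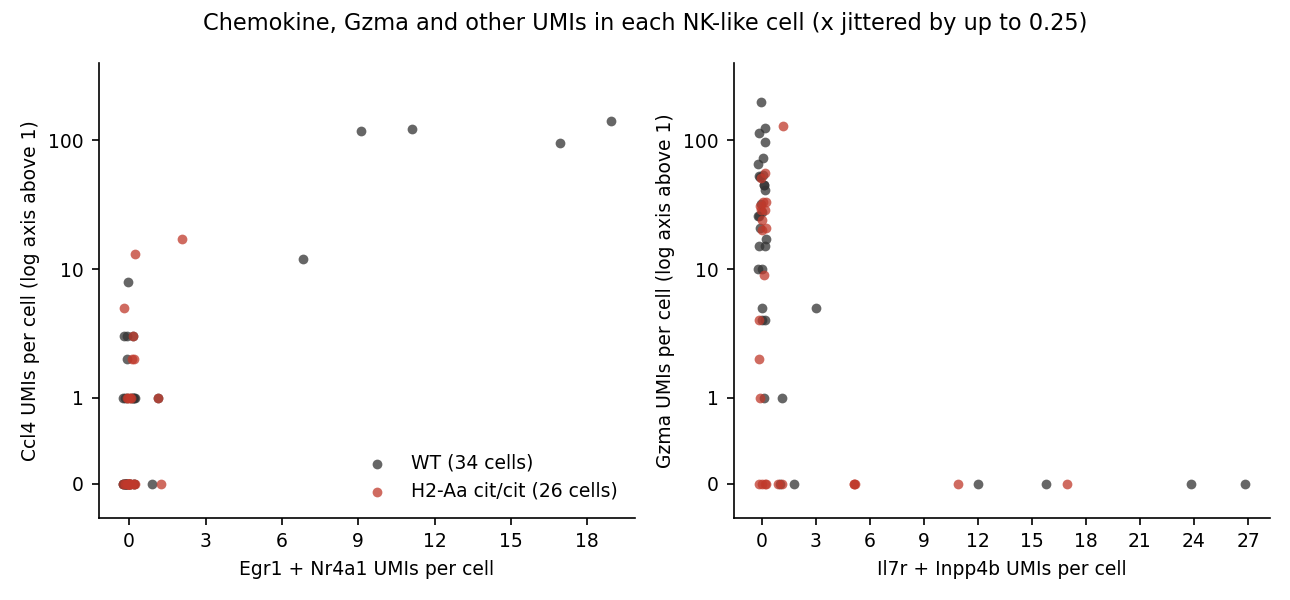
Left, Ccl4 UMIs against the sum of Egr1 and Nr4a1 UMIs in each NK-like cell; right, Gzma UMIs against the sum of Il7r and Inpp4b UMIs (y axes logarithmic above 1 UMI, x values jittered), WT in gray and H2-Aa cit/cit in red. The 4 WT cells at 96 to 141 Ccl4 UMIs are also those with most Egr1 and Nr4a1, and nearly all Il7r and Inpp4b UMIs lie in cells without Gzma.

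Activating receptors and their adaptors were close to balanced. Klrk1, which encodes NKG2D, stood at 1113 CPM in WT and 955 CPM in the mutant, with a log2 ratio of -0.22 (-0.53 to 0.09), and was found in 76.5% and 79.2% of thinned cells. The adaptors that carry the activating signal were under 2-fold, with an interval that excluded 0 for Fcer1g alone. Tyrobp (DAP12) had a log2 ratio of 0.10 (-0.12 to 0.33), Hcst (DAP10) of 0.17 (-0.39 to 0.72), Cd247 of 0.49 (-0.21 to 1.18) and Fcer1g of -0.32 (-0.60 to -0.04).

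Ncr1, the natural cytotoxicity receptor NKp46 and a gene of the rule, ran from 0 to 17 UMIs per cell in WT with a median of 5, and from 0 to 21 in the mutant with a median of 2. Its log2 ratio was -0.71, and after thinning 27 of 34 WT and 12 of 24 mutant cells held it. Klrb1c, which encodes NK1.1 and was also used in the rule, had a log2 ratio of -0.26. The values of both are a description.

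Of the 19 activating genes 17 reached 20 UMIs, with 1 past 2-fold in each direction, against 5.12% of all genes higher and 5.14% lower. The median log2 ratio was -0.16, and also -0.16 over the 15 that the rule did not use. Cd226, the adhesion receptor DNAM-1, was higher in the mutant, with 24 UMIs in 8 WT and 39 UMIs in 11 mutant cells and a log2 ratio of 1.15 (0.38 to 1.95). Among cells with Gzma alone it was 0.19 (-1.58 to 1.84), with 9 and 6 UMIs. Crtam, a receptor for a nectin-like adhesion molecule, was lower, with 46 and 15 UMIs and a log2 ratio of -1.17 (-2.12 to -0.30), and 22 of the 46 came from the 4 cells rich in Ccl4. Without those it was -0.60 (-1.64 to 0.39), and without the cells rich in DC RNA -0.90 (-1.85 to -0.03), both under 2-fold.

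The genes of the Ly49 receptors differed in direction. Klra4 encodes Ly49D and Klra8 encodes Ly49H, which are the activating members in C57BL/6 mice and signal through DAP12. The regions around their starts are printed because both genes were lower in mutant NK-like cells. They are RefSeq promoter sequences on GRCm38.p6, both on the minus strand and 300 bases long, at chr6:130067222-130067521 for Klra4 and chr6:130129849-130130148 for Klra8. Each spans the start of its gene, which GENCODE places at base 130067271 for Klra4 and 130129898 for Klra8, and capitals mark the longest run of bases that both share, 37 bases.
Klra4: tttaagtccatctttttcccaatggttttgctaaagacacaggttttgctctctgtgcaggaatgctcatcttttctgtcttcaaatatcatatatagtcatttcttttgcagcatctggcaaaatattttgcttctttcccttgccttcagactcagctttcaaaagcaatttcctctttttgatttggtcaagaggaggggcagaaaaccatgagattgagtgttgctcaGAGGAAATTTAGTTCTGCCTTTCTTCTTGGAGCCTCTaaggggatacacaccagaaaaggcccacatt
Klra8: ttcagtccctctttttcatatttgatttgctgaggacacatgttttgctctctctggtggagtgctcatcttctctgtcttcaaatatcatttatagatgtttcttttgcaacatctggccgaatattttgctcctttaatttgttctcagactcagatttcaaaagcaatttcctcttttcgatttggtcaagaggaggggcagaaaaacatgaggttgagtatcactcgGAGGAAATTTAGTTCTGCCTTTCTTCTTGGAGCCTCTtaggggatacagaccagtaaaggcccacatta
In a global alignment 259 of 300 bases, or 86.3%, were identical. The RUNX motif was searched as TGTGGT and, on the other strand, ACCACA. Neither promoter holds it, and 16.8% of 32851 RefSeq promoters of that length do. RefSeq lists a second, overlapping start for Klra8.

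Klra8 had a lowest, median and highest value of 0, 3.5 and 27 UMIs per cell in WT and of 0, 0 and 9 UMIs per cell in the mutant. It was found in 24 of 34 WT and 9 of 26 mutant cells. Its level was 1059 CPM in WT and 327 CPM in the mutant, a log2 ratio of -1.69 (-2.17 to -1.24). In thinned cells 52.9% (35.1 to 70.2) of WT and 20.8% (7.13 to 42.2) of mutant cells held it, a difference of -32.1 percentage points (-51.5 to -6.65), and at most 0.028% of the other cells did. The log2 ratio lay between -1.93 and -1.46 when the deepest cell of each library, the cycling cells, the cells rich in DC RNA or the cells without Gzma were left out in turn.

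Klra4 had 0, 7 and 36 UMIs per cell in WT and 0, 0 and 55 UMIs per cell in the mutant. It was also found in 24 WT and 9 mutant cells, with 1701 and 735 CPM and a log2 ratio of -1.21 (-1.53 to -0.90). The deepest mutant cell alone held 55 of the 110 UMIs, and without the deepest cell of each library the log2 ratio was -2.08 (-2.52 to -1.67). Without the cells rich in DC RNA it was -0.98 (-1.31 to -0.67), under 2-fold. The thinned shares were 58.8% and 33.3%, a difference of -25.5 points whose interval reached above 0 (-46.8 to 0.472).

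Other Ly49 genes encode inhibitory receptors for MHC class I. Klra7 (Ly49G) was lower, with 98 UMIs in 17 WT and 32 UMIs in 8 mutant cells and a log2 ratio of -1.17 (-1.79 to -0.58), and Klra9 (Ly49I) had a log2 ratio of -0.71 (-1.37 to -0.08), with 21 of its 31 mutant UMIs in 1 cell. Klra1 (Ly49A) went the other way, with 25 UMIs in 6 WT and 51 UMIs in 8 mutant cells and a log2 ratio of 1.48 (0.76 to 2.23), and 0.94 (0.01 to 1.89) without the cycling cells. Klra3 (Ly49C) had 45 and 24 UMIs in 7 cells of each library, a log2 ratio of -0.46 (-1.24 to 0.29). Reads that fit several members could be lost or split between them, which was not tested. Windows of 100 bases were taken from the last 500 bases of the annotated transcripts. Of those of Klra4, Klra8, Klra7 and Klra1, 0% occur in another Klra gene. The share was 1.07% for Klra9 and 3.24% for Klra3.

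Over the 9 Klra genes together 30 of 34 WT and 21 of 26 mutant cells had a UMI. In cells thinned to 1500 UMIs the share was 88.2% in WT (72.5 to 96.7) and 70.8% in the mutant (48.9 to 87.4), against 1.12% and 0.948% in all other cells. The difference between genotypes was -17.4 points (-38.6 to 3.19). At this number of cells a difference in the share with any Ly49 gene was not detectable. At least 3 different Klra genes were seen in 14 of 34 thinned WT cells and in 6 of 24 thinned mutant cells.

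Among lectin-like and other receptors outside the Ly49 family, Klrg1, a receptor for cadherins that marks late NK cells, had 6 UMIs in 6 WT and 22 UMIs in 7 mutant cells. Its log2 ratio was 2.32 (0.97 to 3.91), and 1.48 (-0.08 to 3.20) without the cycling cells. Klrc1, which encodes the inhibitory receptor NKG2A, had 10 and 24 UMIs, a log2 ratio of 1.71 (0.59 to 2.94), and 1.04 (-0.23 to 2.37) without the deepest cell of each library. In the mutant 10 of the 24 lay in 1 cell, and 17.1% of its 3′ windows also occur in other genes of its family, most often Klrc2. Klrd1, the CD94 chain that pairs with NKG2A, had a log2 ratio of 0.19 (-0.16 to 0.54) and is also transcribed in other sorted cells, at 151 and 221 CPM. Klri2 was lower, with 94 and 28 UMIs and a log2 ratio of -1.30 (-1.96 to -0.68). The checkpoint genes Pdcd1 and Tigit were near their floor, with 0 and 1 UMI of Pdcd1 and 3 and 1 UMI of Tigit.

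The list headed inhibitory receptors also held Klra4 and Klra8. Of its 21 genes 13 reached 20 UMIs, of which 3 were past 2-fold higher (Klrg1, Klrc1 and Klra1) and 4 past 2-fold lower (Klra8, Klri2, Klra4 and Klra7), against a background of 5.12% and 5.14%. Without the cells rich in DC RNA Klra4 and Klra7 were under 2-fold, at -0.98 and -0.95. Klra7 was also under it without the deepest cell of each library, at -0.94, and without the cycling cells, at -0.92, as was Klri2 without the cycling cells, at -0.94. Its median log2 ratio was -0.54, and -0.46 with Klra4 and Klra8 counted among the activating receptors, whose median was then -0.21.

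**Figure D3:**
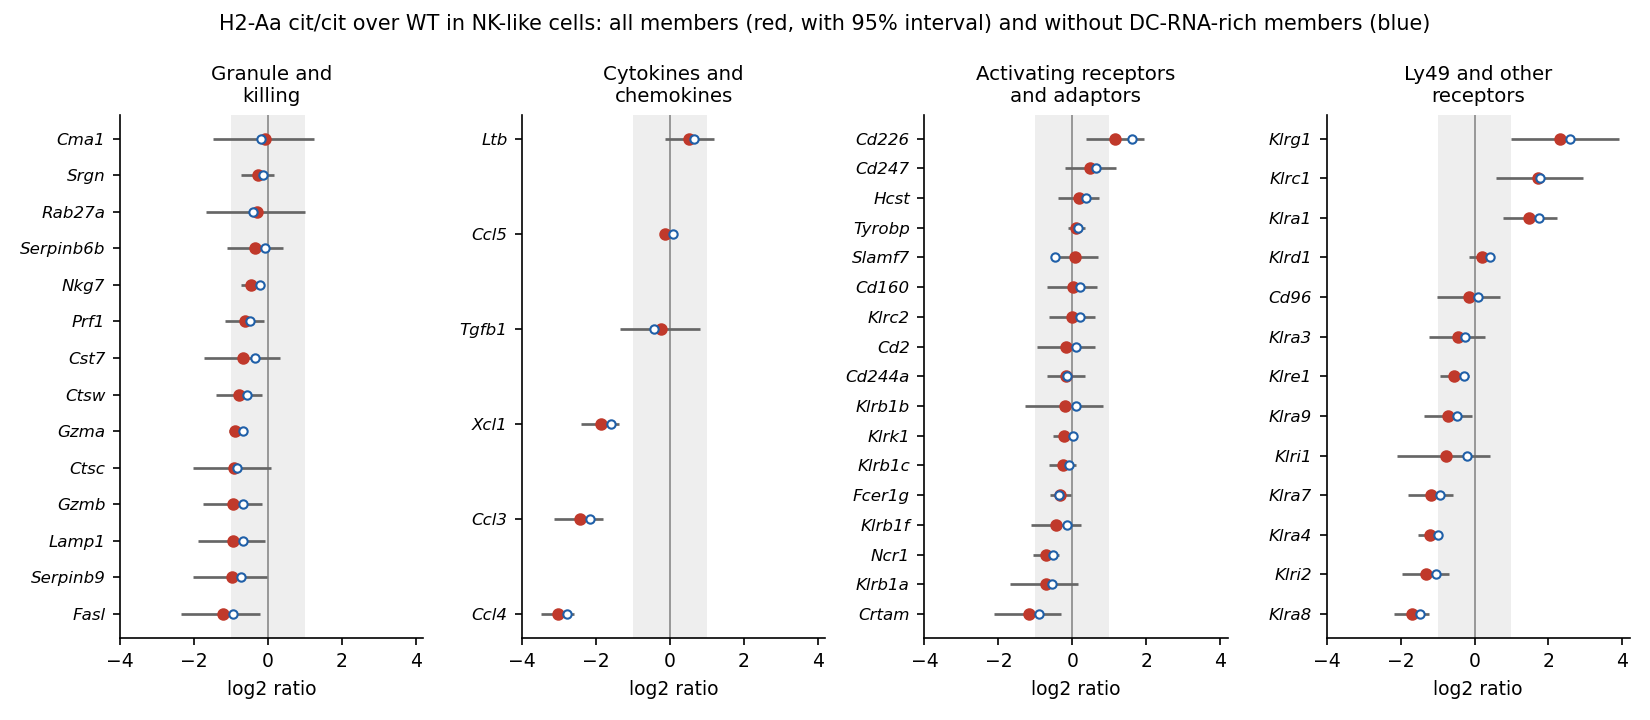
Log2 ratios of H2-Aa cit/cit over WT level for the genes of 4 lists with at least 20 UMIs; red points are all 34 and 26 cells with 95% counting intervals, blue rings the ratios without the cells rich in DC RNA, and the gray band spans 2-fold. Ncr1, Klrb1c and Gzma were used to choose the cells. Granule genes lie left of 0, activating receptors around 0, and the Ly49 and other receptors spread to both sides.

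Receptors for cytokines that sustain NK cells were under 2-fold where they could be compared. Of 20 genes for cytokine receptors and their signaling 14 reached 20 UMIs. Past 2-fold in either direction were 0, against 10.3% of all genes, which 14 genes are too few to tell apart. The median log2 ratio was 0.01. Il2rb had a log2 ratio of -0.15 (-0.62 to 0.30) and Il2rg, the common γ chain, of 0.04 (-0.68 to 0.75). Intervals lay below 0 for 2 of the 14, against 191 of all 3674 genes. The 2 were Il18rap, a chain of the IL-18 receptor, at -0.81 (-1.40 to -0.25), and Stat4, which transmits IL-12 signals, at -0.64 (-1.04 to -0.25).

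Of 16 transcription factors of NK cells 12 reached 20 UMIs, with 0 past 2-fold, against 10.3% of all genes. Log2 ratios lay below 0 for 10, with a median of -0.21, or -0.05 without the cells rich in DC RNA. The interval lay below 0 for 1, against 191 of all 3674 genes. That gene was Tox, at -0.38 (-0.70 to -0.06). Without the cells rich in DC RNA Tox was at -0.10 (-0.42 to 0.23) and Irf8 at -0.74 (-1.42 to -0.10). Tbx21, which encodes T-bet, had 61 UMIs in 18 WT and 38 UMIs in 16 mutant cells, a log2 ratio of -0.24 (-0.86 to 0.37). Eomes had a log2 ratio of -0.18 (-1.02 to 0.63), but 13 of its 22 mutant UMIs came from 1 cell. Runx3, Ets1 and Id2 had log2 ratios of -0.07, -0.33 and -0.36, with intervals that reached 0 for each.

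Genes of early and late NK stages were compared next, against 5.12% past 2-fold higher and 5.14% lower among all genes. Of 12 genes of the CD27-high stage 9 reached 20 UMIs, with 1 past 2-fold higher, 1 lower, 7 above 0 and a median log2 ratio of 0.36, or 0.64 without the cells rich in DC RNA. The lower one was Xcl1. Kit, the stem cell factor receptor, was higher at 1.40 (0.49 to 2.37), and 0.73 (-0.33 to 1.79) without the deepest cell of each library. Of 12 genes of the CD11b-high stage 10 reached 20 UMIs, with 1 past 2-fold higher, 1 lower, 5 above 0 and a median of -0.03. The lower one was S1pr5, a receptor that guides exit from tissues, with 24 UMIs in 14 WT and 7 UMIs in 5 mutant cells and a log2 ratio of -1.33 (-2.79 to -0.07). Itgam, the CD11b chain itself, had a log2 ratio of 0.02 (-0.77 to 0.79).

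Cells without Gzma differed from the rest in both libraries, and they made up 6 of 34 WT and 11 of 26 mutant cells. This split was made after the values had been seen and is a description. Il7r, the IL-7 receptor chain of innate lymphoid cells and early NK cells, had 32 of 33 WT and 31 of 31 mutant UMIs in cells without Gzma. Inpp4b, a lipid phosphatase gene, had 50 of 53 and 14 of 15 there. It is also transcribed in the other sorted cells, at 254 and 339 CPM, and 20 of the WT UMIs of Inpp4b and 7 of those of Il7r came from 1 cell rich in DC RNA, described below. Gzmb had 0 UMIs and Prf1 1 and 4 UMIs in these cells. Of the 41 mutant UMIs of Xcl1 38 lay in cells without Gzma, while in WT 48 of 205 did. Among defining genes of type 1 innate lymphoid cells, all UMIs of Itga1, 4 and 1, and of Cxcr6, 1 and 5, also lay in cells without Gzma, and Zfp683 had 0 in both libraries. Tmem176a and Tmem176b, on the same list, did not follow this in the mutant. In WT 4 of 5 and 12 of 21 of their UMIs lay in cells without Gzma, and in the mutant 2 of 7 and 2 of 13. The 9 genes of that list, which holds Il7r and Inpp4b, summed to 652 CPM in WT and 628 CPM in the mutant, and 1211 and 1032 CPM in the other cells, and of the 3 that reached 20 UMIs 1, Inpp4b, was past 2-fold lower, against 5.14% of all genes, at -1.37, and -0.52 (-1.54 to 0.42) without the cells rich in DC RNA.

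Across all genes with at least 20 UMIs, the 10 lowest ratios in the mutant were led by H2-Aa itself, at -5.12. Serpinb6a, an intracellular serine protease inhibitor, gave 28 UMIs in 11 WT cells and 1 UMI in 1 mutant cell, a log2 ratio of -4.36 (-9.71 to -1.76). Egr1, Nr4a1, Ccl4 and Egr3 were among the 10, and the 4 cells described above held 26 of the 27 WT UMIs of Egr3. The others were D5Ertd615e with 32 and 2 UMIs, 1810037I17Rik with 48 and 5, Gtf2a1 with 21 and 2 and Ppp6r2 with 19 and 2.

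The 10 highest ratios were led by Ifi27l2a, an interferon-induced gene, with 2 UMIs in 2 WT and 18 UMIs in 7 mutant cells and a log2 ratio of 3.62 (1.55 to 6.77). In the mutant 10 of its 18 UMIs came from 1 cell. It stood at 138 CPM in the other WT cells and at 286 CPM in the other mutant cells. Plac8 had 13 UMIs in 7 WT and 78 UMIs in 13 mutant cells, and without the cells rich in DC RNA 7 and 20 UMIs. The others were Lpxn, Nfatc2, Klrg1, Zfp62, Plekha1, Efl1, Fmnl2 and Sdf2l1, with 16 to 22 mutant UMIs each and log2 ratios from 2.21 to 2.62. Fmnl2, a formin, stood at 0.71 without the cells rich in DC RNA.

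RNA of DC was measured in the same cells with 3 genes that mark DC in this sort: H2-Ab1, the MHC class II β chain, Cd74, the invariant chain that escorts it, and Flt3, the receptor for the DC growth factor. H2-Ab1 ran from 0 to 26 UMIs per WT cell with a median of 3, and from 0 to 114 per mutant cell with a median of 2. Cd74 ran from 1 to 43 with a median of 5 and from 0 to 322 with a median of 5.5. Flt3 was found in 2 of 34 WT and 5 of 26 mutant cells, with a highest value of 5 UMIs in each. Nearly every cell thus held some MHC class II RNA, and few held Flt3.

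As a percent of their level in all other cells of the same library, WT NK-like cells held 11.3% (9.22 to 13.6) of H2-Ab1, 10.3% (9.11 to 11.6) of Cd74 and 6.94% (2.55 to 15.1) of Flt3. Mutant NK-like cells held 28.1% (24.9 to 31.6), 31.0% (28.7 to 33.3) and 26.0% (13.9 to 44.5). The higher values in the mutant came from 3 cells. Cells were called rich in DC RNA when H2-Ab1, Cd74, H2-Eb1 and Cst3 made up at least 50% of the median share that these genes have in the other cells, which is 1.85% of UMIs in WT and 2.76% in the mutant. In the NK-like cells the median was 0.240% and 0.339%.

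By this limit 1 WT cell, at 0.937%, and 3 mutant cells, at 1.76%, 3.74% and 5.70%, were rich in DC RNA. These 3 cells held 225 of the 279 H2-Ab1 UMIs, 578 of the 701 Cd74 UMIs and 11 of the 13 Flt3 UMIs of the mutant NK-like cells, and their H2-Ab1 level was 109% (95.6 to 125) of that of the other cells. Between them they had 28, 3 and 3 UMIs of the selecting genes, so 2 sat at the threshold, and 1 of those 2 also held all 4 Siglech UMIs of the mutant NK-like cells. Whether they are doublets was not tested.

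Without these 4 cells the libraries had overlapping intervals for all 3 genes. The cells were picked by their share of H2-Ab1 and Cd74 among other genes, so leaving them out lowers both by construction. H2-Ab1 stood at 8.90% (7.06 to 11.1) of the other cells in WT and 6.86% (5.16 to 8.96) in the mutant, Cd74 at 9.07% (7.93 to 10.3) and 6.85% (5.69 to 8.18), and Flt3 at 1.21% (0.03 to 6.76) and 5.05% (0.61 to 18.2), with 1 and 2 UMIs. The shares of NK-like cells were then 0.422% and 0.200%.

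**Figure D4:**
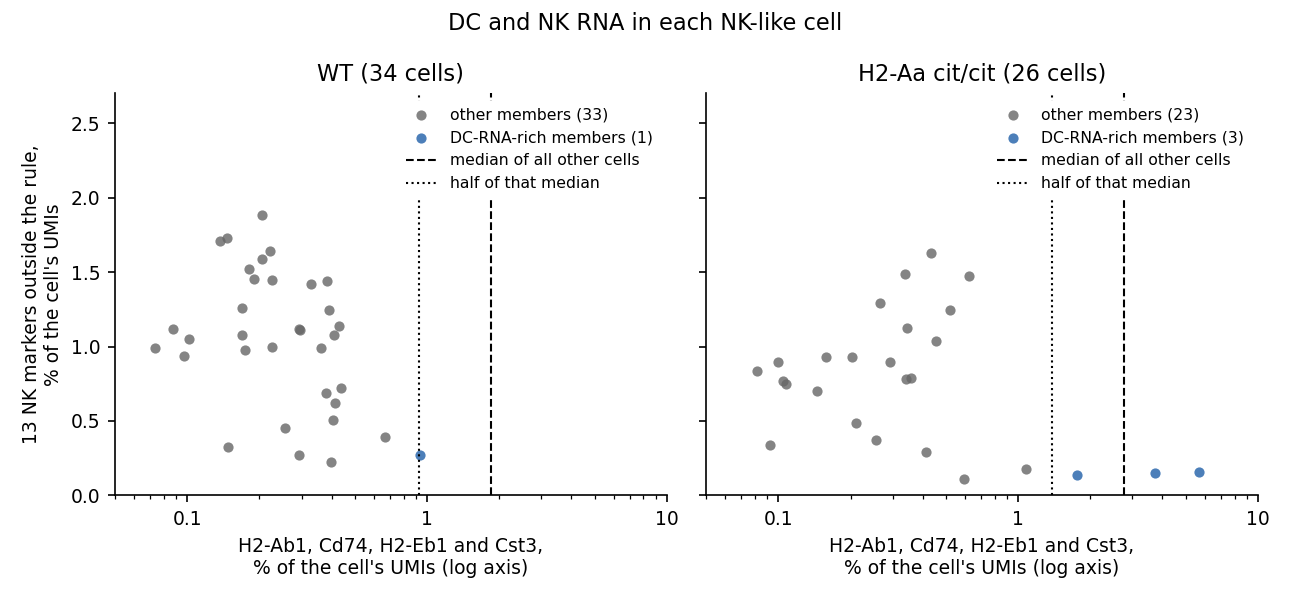
Each NK-like cell by the share of its UMIs in H2-Ab1, Cd74, H2-Eb1 and Cst3 (x, logarithmic) and in the 13 NK markers outside the rule (y), with the median of all other cells of the library (dashed) and 50% of it (dotted). In blue are the 1 WT and 3 H2-Aa cit/cit cells at or above the dotted line, which lie at 0.136 to 0.269% on the y axis, and the remaining cells lie at or below 1.08% on the x axis.

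The proportions of DC genes to each other were compared next. For every 100 H2-Ab1 UMIs the other WT cells held 278 UMIs of Cd74, and the WT NK-like cells not rich in DC RNA held 284 (219 to 371). In the mutant the values were 228 and 228 (164 to 320). H2-Eb1, the partner chain gene of the H2-E molecule, stood at 107 and 101 (73.4 to 140) in WT and at 107 and 120 (82.6 to 176) in the mutant. H2-Aa, at 118 and 100 (72.4 to 138) in WT, had an interval that held the value of the other cells as well. Where this RNA came from was not tested.

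Over the DC genes with at least 100 CPM in the other cells, the proportion to H2-Ab1 fell within the interval for 12 of 15 genes in WT and 13 of 14 in the mutant. The exceptions were H2-DMa, a chain of the peptide-loading chaperone, with 26.3 (15.4 to 42.9) per 100 against 7.84, and Cst3, an inhibitor of cathepsins, with 154 (115 to 206) against 92.9, both higher in WT NK-like cells, Flt3 with 1.25 (0.03 to 7.17) against 9.18, lower in WT, and Batf3, a transcription factor of cDC1, with 27.8 (14.6 to 49.9) against 2.71, higher in the mutant. In WT 40 of the 123 Cst3 UMIs of these NK-like cells came from 1 cell. Batf3 reached 70.3% (39.3 to 116) of the level in the other mutant cells, with 15 UMIs in 6 of 23 cells. Falling within the interval says little for genes with few UMIs, as their intervals were wide. Among mutant NK-like cells not rich in DC RNA, Cd209a gave 0 UMIs, Ccr7, Ffar2 and Naaa 1 each, and Flt3 and Sirpa 2 each. Among those of WT, Clec9a gave 0 UMIs, and H2-DMb1, Ccr7 and Ffar2 2 each. For these genes the tally cannot tell whether the proportions match those of the other cells.

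**Figure D5:**
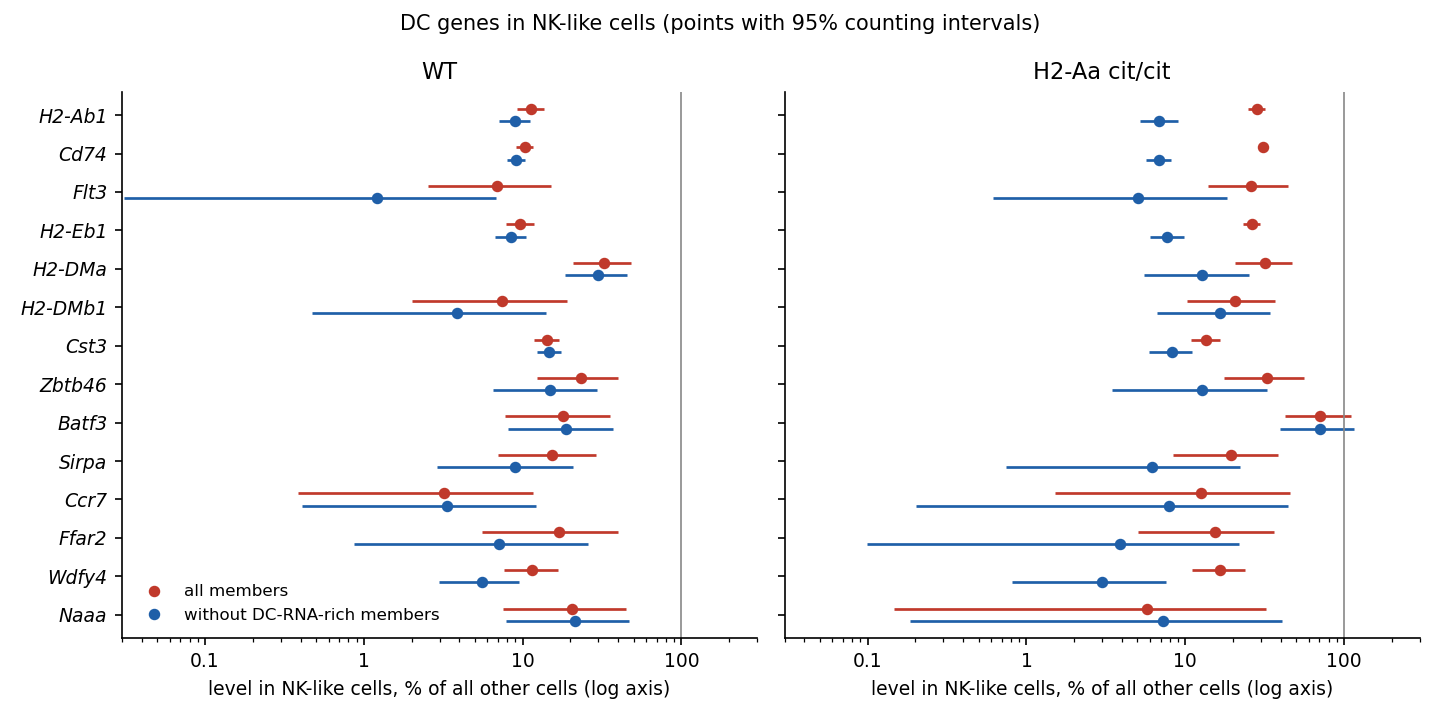
Level of 14 DC genes in NK-like cells as a percent of all other cells of the same library (logarithmic x axis, 95% counting intervals), for all NK-like cells (red) and without those rich in DC RNA (blue). In WT H2-Ab1 and Cd74 lie at 10.3 to 11.3% in red and 8.90 to 9.07% in blue, and in H2-Aa cit/cit the red points for H2-Ab1, Cd74 and Flt3 at 26.0 to 31.0% drop to 5.05 to 6.86% in blue.

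A class of cells that should also lack MHC class II gave a reference. Cells with at least 10 UMIs of the neutrophil genes S100a8 and S100a9 numbered 11 in WT and 16 in the mutant, with median depths of 2942 and 6392 UMIs, and were chosen after the NK-like cells had been measured. The 4 DC genes made up a median of 0.384% and 0.378% of their UMIs, and up to 3.34% and 7.33% in single cells, so this class also holds cells rich in DC RNA. Thinned to 1500 UMIs, H2-Ab1 was found in 44.1% (27.2 to 62.1) of WT NK-like cells and in 72.7% (39.0 to 94.0) of the WT cells with neutrophil genes, and in the mutant in 58.3% (36.6 to 77.9) and 64.3% (35.1 to 87.2). Flt3 was found in 2.94% and 9.09% in WT and in 16.7% and 28.6% in the mutant. The shares for H2-Ab1 and Flt3 in NK-like cells were at or below those of this class, with overlapping intervals, and WT Flt3 was 1 cell in each. Cd74 was found in 88.2% and 81.8% in WT and in 79.2% and 71.4% in the mutant, which is higher in NK-like cells, with intervals that overlapped.

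The whole list of 20 DC genes summed to 3921 CPM in WT and 9929 CPM in mutant NK-like cells, against 36084 and 37098 CPM in the other cells, with Cd74 the most abundant. These sums include the cells rich in DC RNA, which in the mutant held 578 of the 701 Cd74 UMIs. Among listed genes at 100 CPM or more in other cells, the median was 11.4% of that level in WT and 26.0% in the mutant. Without the cells rich in DC RNA it was 8.65% in WT and 7.28% in the mutant. Clec9a and Xcr1, defining genes of cDC1, gave 0 and 0 UMIs in WT and 0 and 1 UMI in the mutant. Ccr7, a gene of migratory DC, gave 2 UMIs in each library. Itgax, which encodes CD11c, the marker of the sort, had 29 UMIs in 18 WT and 28 UMIs in 11 mutant NK-like cells, or 142 and 187 CPM, against 199 and 224 CPM in the other cells, and its log2 ratio was 0.40 (-0.41 to 1.20).

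The cells rich in DC RNA moved the receptor and effector results as well, since their UMIs enter the totals. Without them the median log2 ratio was -0.52 for the same 14 granule genes, 0.02 for the activating and -0.25 for the inhibitory list. Gzma was then at -0.68, Klra8 at -1.49 (-1.97 to -1.02) and Klra1 at 1.74 (1.03 to 2.50).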

How the data were processed

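Gene by cell matrices of UMI counts were deposited for 1 library per genotype. Per the study's methods and the submitters' processing notes, the authors made the counts with Cell Ranger 5.0.1 on GRCm38 from Chromium 3′ libraries and used Seurat downstream. The gene annotation is not given in the sources used here. The libraries held 51020804 UMIs in 7814 WT cells and 72652201 in 11525 H2-Aa cit/cit cells, of which NK-like cells held 204031 and 149666. Counts were used as deposited, without a further filter on cells. Doublets were not removed and no caller was run.

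NK-like cells and all gene lists were chosen with earlier results of these data known. UMIs were summed over NK-like cells per library. CPM carry exact Poisson intervals, ratios exact conditional binomial intervals and shares of cells Clopper-Pearson intervals. Genes with at least 20 UMIs over both libraries were compared, and 2-fold was the limit for counts of genes. Cells were thinned to 1500 UMIs at random where shares were compared. The 10 genes with the lowest and highest ratios with UMIs in at least 3 cells, the 20 highest against all other cells (CPM plus 5) and the members of the lists were named, and further genes and cells where said. Positions are from GENCODE, and promoters from RefSeq. Python 3.11.15, numpy 2.4.6, scipy 1.17.1, pandas 2.3.3, statsmodels 0.14.6, Biopython 1.88 and matplotlib 3.10.9 were used, and the counting steps were tested on simulated data. Alternatives were other limits of the rule, other scalings and thresholds, and leaving out groups of cells. A few genes of the lists are not reported here.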

Additional observations from a re-analysis of the deposited data

How the results depend on the processing

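No paired analysis was possible because each genotype had 1 library. The share of NK-like cells was lower in H2-Aa cit/cit under the 10 alternatives for which it was computed, by a difference between -0.223 and -0.158 percentage points. With a sum of at least 2 its interval reached 0, at -0.166 (-0.356 to 0.001). Medians below are log2 ratios over the genes of a list, H2-Aa cit/cit over WT, and DC RNA is given as the percent of the level in other cells. With a sum of at least 2 the median was -0.33 for activating and -0.74 for inhibitory receptors, and H2-Aa cit/cit cells held 42.4% of H2-Ab1 and 42.0% of Cd74. With a sum of at least 4 the medians were -0.033 and -0.33, and H2-Ab1, Cd74 and Flt3 stood at 8.90%, 9.07% and 1.21% in WT and at 13.2%, 13.1% and 9.57% in H2-Aa cit/cit. With UMIs of at least 2 of the 3 genes H2-Ab1 and Cd74 stood at 34.8% and 37.9% in H2-Aa cit/cit. Without the cells rich in DC RNA the medians were -0.55 for those granule genes that still had 20 UMIs, 0.023 for activating and -0.25 for inhibitory receptors, and the 3 DC genes stood at 8.90%, 9.07% and 1.21% in WT and 6.86%, 6.85% and 5.05% in H2-Aa cit/cit. As a mean of counts per 10000 in each cell the 3 medians were -0.58, 0.00089 and -0.33, with H2-Ab1 at 14.2% in WT and H2-Ab1 and Cd74 at 24.4% and 27.6% in H2-Aa cit/cit. Without the deepest cell of each library the medians were -0.29 for activating and -0.72 for inhibitory receptors, H2-Ab1 and Cd74 stood at 32.2% and 35.6% in H2-Aa cit/cit, and 164 genes were past 2-fold higher and 231 lower, against 188 and 189. The mean per 10000 gave 225 higher and 286 lower. A minimum of 10 UMIs gave 1051 genes past 2-fold of 5931, and one of 50 UMIs 65 of 1406, so low counts set how many genes pass. Thinning to 1500 UMIs put H2-Ab1 at 15.2% in WT and H2-Ab1 and Cd74 at 20.1% and 27.3% in H2-Aa cit/cit.

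Further alternatives, among them the share in thinned cells, were chosen after seeing the data. Without the cycling cells the medians were -0.60 for granule genes and -0.79 for inhibitory receptors, Cd74 stood at 11.6% in WT, and H2-Ab1 and Cd74 at 35.6% and 39.2% in H2-Aa cit/cit. Without the 4 cells rich in Ccl4 the medians were -0.58 and -0.36, and Cd74 stood at 12.5% in WT. Counting Klra4 and Klra8 as activating gave medians of -0.21 and -0.46. The cause of these shifts was not tested, apart from the cells that each alternative leaves out. With 34 and 26 cells, a gene of 20 UMIs in all has an interval wider than 2-fold, and no value covers the spread between mice.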

Other observations

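Of 15 genes of protein folding in the endoplasmic reticulum 11 reached 20 UMIs, of which 1, Sdf2l1, was past 2-fold higher in H2-Aa cit/cit and 0 lower, against 5.12% and 5.14% of all genes, with a median log2 ratio of 0.60. Pdia3, a disulfide isomerase of the peptide-loading complex, gave 42 UMIs in WT (19 cells) and 59 in H2-Aa cit/cit (20 cells), a log2 ratio of 0.94 (0.34 to 1.54). The chaperones Hsp90b1 and Calr stood at 0.81 (0.29 to 1.34) and 0.79 (0.22 to 1.37). Hspa5, which encodes BiP, stood at 0.60 (0.09 to 1.11), and at 0.06 without the cells rich in DC RNA, where the median of the list was 0.20. The same 15 genes summed to 1778 CPM in the other WT cells and 5643 CPM in the other H2-Aa cit/cit cells, and to 1867 and 2933 CPM in the NK-like cells, so RNA from the other cells moves in the same direction, and its part in the difference was not tested.

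Genes of the MHC class I pathway were all under 2-fold. All 9 reached 20 UMIs and 0 were past 2-fold in either direction, against 10.3% of all genes, which 9 genes are too few to tell apart. The median log2 ratio was 0.19, and 0.32 without the cells rich in DC RNA. H2-K1, a classical class I chain and a ligand of Ly49 receptors, gave 393 and 329 UMIs, a log2 ratio of 0.19 (-0.03 to 0.41), and B2m 333 and 225 UMIs, a log2 ratio of -0.12 (-0.37 to 0.13). Nlrc5, the activator of class I transcription, was the 1 gene with an interval above 0, at 0.93 (0.15 to 1.73). Among all 3674 genes 219 had an interval above 0.

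Of 12 immediate-early genes 7 reached 20 UMIs, 3 were past 2-fold lower (Egr1, Nr4a1 and Jund) and 0 higher, against 5.14% and 5.12% of all genes, and the median log2 ratio was -0.98, or -0.44 with 1 of 5 past 2-fold lower once the 4 cells rich in Ccl4 were left out. Jund gave 77 UMIs over 28 WT cells against 27 UMIs over 13 H2-Aa cit/cit cells, a log2 ratio of -1.06 (-1.75 to -0.42), and Ier2 43 and 16 UMIs, a log2 ratio of -0.98 (-1.91 to -0.12), under 2-fold.

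Cycling was confined to few cells. Of 12 cell cycle genes 7 reached 20 UMIs, with 1 past 2-fold higher, Mki67, and 0 lower, against 5.12% and 5.14% of all genes, and a median log2 ratio of 0.42. UMIs of Top2a came from 2 WT cells and from 4 H2-Aa cit/cit cells, and those of Mki67 from 3 and 4. In H2-Aa cit/cit 1 cell, the deepest at 20901 UMIs, held 46 of the 65 Mki67 and 55 of the 110 Klra4 UMIs.

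Homing and adhesion genes gave a median log2 ratio of 0.04 over 12 of 18 genes, of which 1, S1pr5, was past 2-fold lower and 0 higher, against 5.14% and 5.12% of all genes. Itga2, the integrin chain CD49b used to identify NK cells, gave 78 UMIs in 25 WT and 46 UMIs in 14 H2-Aa cit/cit cells, a log2 ratio of -0.31 (-0.87 to 0.23), and 0.276 CPM in the other cells of each library. The 13 NK markers that the rule did not use had a median of -0.47, and -0.25 without the cells rich in DC RNA, with 2 past 2-fold lower, Klra8 and Klra4, against 5.14% of all genes. Of the 9 plasmacytoid DC genes 3 reached 20 UMIs and 2 were past 2-fold higher, Tcf4 at 1.27 and Bst2 at 1.58 (0.45 to 2.83), against 5.12% of all genes. The median of the 3 was 1.27, and 0.17 without the cells rich in DC RNA, where Bst2 was at -0.02, and the list summed to 71 UMIs for WT against 94 for H2-Aa cit/cit.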
